A study of Mus musculus with 8 samples.

Results

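Collagens are the main structural proteins of the extracellular matrix, and the genes for their chains were read out here from the RNA-seq data of transplanted and cultured cardiac fibroblasts. The chains were taken as every protein-coding gene of the deposited table whose symbol is Col, a number, a and a number. The rule found 44 chains among 22046 protein-coding genes, in a table of 54532 genes. They were sorted by the structure of the protein into 11 fibrillar chains, 6 network chains of the basement membrane, 3 short network chains, 9 FACIT chains (fibril-associated collagens with interrupted helices), 6 beaded-filament chains, 4 transmembrane chains, 2 multiplexins and 3 others. Of the 44 chains, 37 reached an FPKM (fragments per kilobase of gene length, scaled by library size) of at least 0.5 in at least 2 libraries and were tested. *Col2a1*, *Col7a1*, *Col9a2*, *Col9a3*, *Col23a1*, *Col24a1* and *Col28a1* were below 0.5 in every library of cultured cells. They passed this filter through libraries of transplanted cells alone, and they are part of the counts and medians below.

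The cells were MICFs, which are cardiac fibroblasts isolated from the hearts of adult mice after myocardial infarction (MI). Per the study, MICFs as isolated also held macrophages and a small share of endothelial cells. The sort described below was on eGFP alone, so the samples cannot be taken as pure fibroblasts. All of them carried lentiviruses with tetracycline-inducible MGT (*Mef2c*, *Gata4* and *Tbx5*), *Myocd*, *Sall4* and eGFP, so the reprogramming factors were present in every group and there was no group without them. The *in vivo* samples are eGFP+ cells sorted from infarcted hearts into which the MICFs had been transplanted, in mice that received doxycycline and immunosuppressants (tacrolimus, methylprednisolone and mycophenolate mofetil). The *in vitro* samples are eGFP+ cells sorted from the MICFs kept in culture with doxycycline, in a medium that held SB431542, an inhibitor of the TGF-β receptor, and baricitinib, an inhibitor of JAK kinases. Each of the 4 groups (*in vivo* and *in vitro*, 1 week and 2 weeks) held 2 libraries, 8 in all. The heart, the medium with its inhibitors and the immunosuppressants changed together between the *in vivo* and *in vitro* samples and cannot be told apart. The labels do not say which animals or wells gave a library, so the p-values measure the spread between these libraries, which may be technical.

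Collagen chains wind around each other into a rope-like helix that needs glycine at regular steps, in a repeat of Gly-X-Y triplets. Fibrillar collagens have a long unbroken repeat and assemble into the tension-bearing fibres of scar and tendon. Network collagens form sheets such as the basement membrane. FACIT and beaded-filament collagens decorate fibres or link them to cells, and transmembrane collagens sit in the cell surface. In the heart, fibroblasts make most of the fibrillar collagen, and its accumulation after infarction builds the scar.

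The classes differ in the genes themselves, which is shown first because the values below are ordered by class. Fibrillar collagen genes are built from many coding exons of 54 bases, each of which encodes a whole number of Gly-X-Y triplets. In the GENCODE vM21 annotation of GRCm38, 305 of the 649 coding exons of the 11 fibrillar genes (47.0%) had exactly this length. The same held for 109 of 432 in the FACIT genes (25.2%), 12 of 296 in the basement membrane genes (4.05%) and 0 of 6 in the short-chain genes. The longest run of glycine codons at every triplet had a median of 338 triplets in the fibrillar genes (216 to 344), 57 in the FACIT genes (32 to 113), 45 in the beaded genes (37 to 87) and 43.5 in the basement membrane genes (39 to 66). Shown are the first 54-base exons inside the longest run of 4 of the most abundant fibrillar chains and of a FACIT chain, and the place where the longest run of *Col4a1* ends. Glycine codons in the triplet register are in capitals.
Col1a1 exon 8, chr11:94939904-94939957, plus strand: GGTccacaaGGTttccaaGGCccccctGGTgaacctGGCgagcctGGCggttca
Col1a2 exon 8, chr6:4515481-4515534, plus strand: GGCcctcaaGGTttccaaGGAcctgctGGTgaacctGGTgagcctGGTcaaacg
Col3a1 exon 6, chr1:45325360-45325413, plus strand: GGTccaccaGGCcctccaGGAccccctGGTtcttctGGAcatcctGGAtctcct
Col5a2 exon 10, chr1:45422386-45422439, minus strand: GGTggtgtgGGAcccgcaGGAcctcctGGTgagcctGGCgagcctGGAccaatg
Col16a1 exon 49, chr4:130083122-130083175, plus strand: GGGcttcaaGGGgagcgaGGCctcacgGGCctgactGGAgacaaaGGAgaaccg
Col4a1, coding bases 460 to 513: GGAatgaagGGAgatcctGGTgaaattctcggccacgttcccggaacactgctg
By this choice the exons of *Col1a1* to *Col16a1* keep the register from end to end. The *Col4a1* bases were taken at the end of its longest run, so the register breaks after the first 27. The longest runs of the other genes shown end in a break as well. *Col4a1* also has a 54-base exon, exon 7, that keeps the register from end to end.

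The libraries held 12304242 to 14546904 fragments on genes. In them 1 fragment on a gene of 1 kb corresponded to an FPKM between 0.0650 and 0.0905. Replicates differed by more than counting error, with a chi-square per gene between 4.25 and 9.22. Fold changes are on the log2(FPKM + 0.1) scale from limma with all 8 libraries in 4 groups. The p-values are Benjamini-Hochberg adjusted over the 15708 genes tested, and a gene was called where that p was below 0.01 and the log2 fold change exceeded 1 in either direction. Values joined by against are the FPKM of both *in vivo* libraries, then of both *in vitro* libraries, and coordinates are those of GRCm38. All 8 fibroblast markers examined (*Dcn*, *Lum*, *Pdgfra*, *Pdgfrb*, *Thy1*, *Tcf21*, *Postn* and *Fbln1*) were above 0 in every group, as were all 11 macrophage markers.

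Collagen transcripts made up a larger part of the transcriptome *in vivo* than *in vitro* at both weeks. The 44 chains held 4.49% ± 0.339 of the summed FPKM *in vivo* and 1.68% ± 0.00322 *in vitro* after 1 week, and 3.56% ± 0.319 and 0.879% ± 0.0485 after 2 weeks (SD, n = 2 each). Counted as fragments, the shares were 10.6% ± 0.512 and 4.23% ± 0.0728 after 1 week and 8.68% ± 0.693 and 2.35% ± 0.0821 after 2 weeks (SD, n = 2 each). At both weeks the lower *in vivo* library lay above the higher *in vitro* library. In bulk samples such as these, fewer cells of a type and less RNA per cell cannot be told apart.

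The make-up of the collagen pool differed between the groups as well. Fibrillar chains held 77.6% ± 0.109 of the collagen FPKM *in vivo* and 65.0% ± 0.408 *in vitro* after 1 week, and 73.7% ± 0.953 and 57.6% ± 0.00495 after 2 weeks (SD, n = 2 each). The share of the basement membrane chains ran the other way, at 7.65% ± 0.0608 *in vivo* and 20.99% ± 0.222 *in vitro* after 1 week and at 7.41% ± 0.0325 and 20.1% ± 0.639 after 2 weeks (SD, n = 2 each). Beaded-filament chains held 8.77% ± 0.190 of the pool in culture after 1 week and 17.2% ± 0.819 after 2 weeks, next to 7.41% ± 0.0133 and 10.3% ± 0.641 *in vivo* (SD, n = 2 each). The short-chain, FACIT and multiplexin chains each held 1.10% to 3.42% of the pool in every group, and the 4 transmembrane chains together held 0.00462% to 0.0276%.

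**Figure D1:**
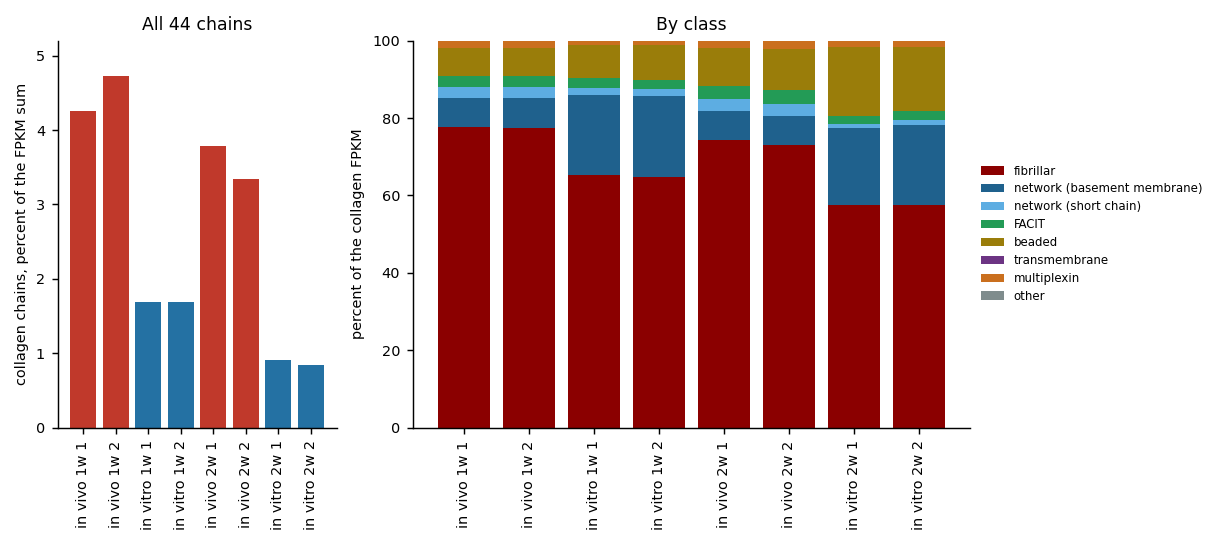
Left, the share of the 44 collagen chains in the summed FPKM of each library, in percent, with red bars for *in vivo* and blue bars for *in vitro* libraries. Right, the collagen FPKM of each library split by class, in percent: fibrillar chains held 77.6% *in vivo* and 65.0% *in vitro* after 1 week on average, and basement membrane chains 7.65% and 20.99%.

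The order of the most abundant chains differed between the groups. *Col1a1* was the chain with the highest FPKM in both *in vivo* libraries after 1 week, where it ranked 2 and 1 among all protein-coding genes. *Col3a1* was highest in all 4 *in vitro* libraries, at rank 15 in both after 1 week and ranks 30 and 35 after 2 weeks. At 2 weeks *in vivo* the pair did not separate: *Col1a1* had an FPKM of 3261 and 2762 and *Col3a1* of 3333 and 2741 in the 2 libraries. *Col4a1* was among the most abundant chains in culture after 1 week, at ranks 38 and 40 next to 39 and 44 for *Col1a2*, with an FPKM of 492 and 486 for *Col4a1* and 485 and 463 for *Col1a2*. FPKM here are per length of the union of all annotated exons, which for *Col1a2* is 2.32 times its longest coding transcript and for *Col1a1* 1.11 times, so levels of different chains depend on that choice.

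**Figure D2:**
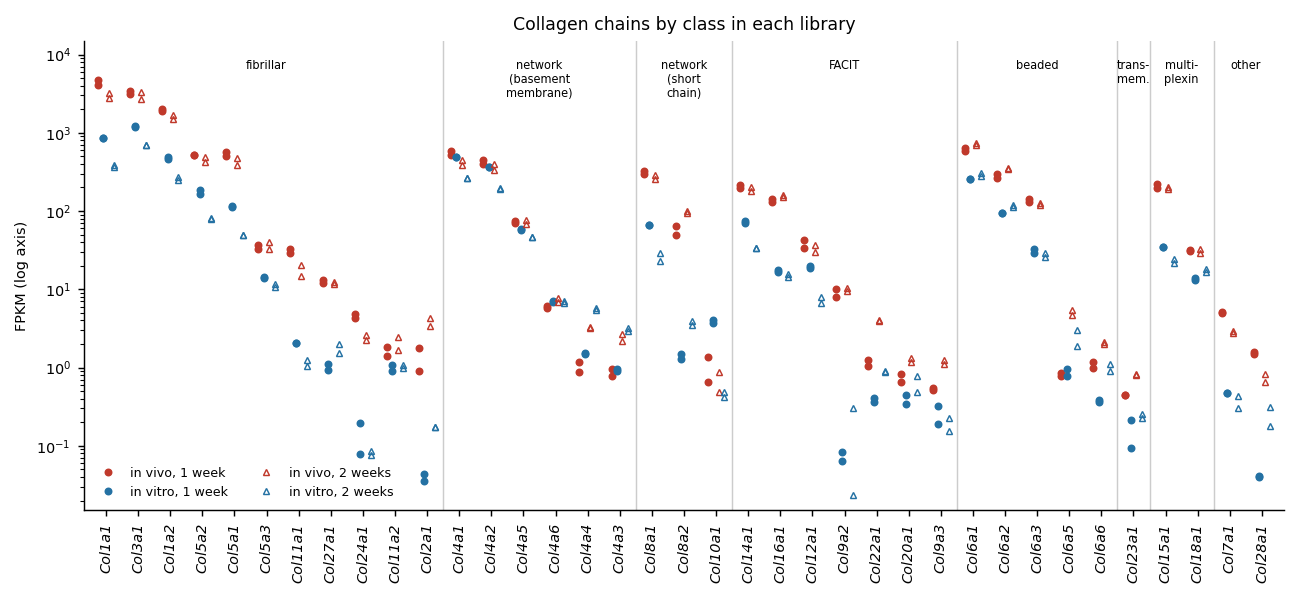
FPKM of the 37 tested collagen chains in each of the 8 libraries on a log axis, ordered by class and then by level, with circles for 1 week, triangles for 2 weeks, red for *in vivo* and blue for *in vitro*. The red symbols lie above the blue ones for most chains outside the basement membrane class.

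A majority of the tested collagen chains were called higher *in vivo* than *in vitro* at both weeks. The counts include the chains named above that passed the filter through libraries of transplanted cells alone. At 1 week 24 of the 37 tested chains were higher and 1 was lower, when 7.79% of all tested genes were higher and 5.07% lower. At 2 weeks 23 chains were higher and 0 were lower by limma, against 9.02% and 8.05% of all genes. At an unadjusted p under 0.05 there were 33 chains higher and 1 lower after 2 weeks. That count was not made over all genes, so it cannot be set against a background. By limma with no fold minimum, 28 chains were higher and 1 lower after 2 weeks, when 2662 and 2714 of all 15708 genes were. By limma voom on the recovered fragments 28 were higher and 0 lower, when 1551 and 1343 of all 15708 genes were. The median log2 fold change of the 37 chains was 1.43 after 1 week and 2.10 after 2 weeks, beside -0.01 and 0.00 for all tested genes. With no filter on low values the medians over 44 chains were 1.34 and 1.65. Of the higher chains, 21 were called at both weeks. *Col18a1*, *Col28a1* and *Col6a6* were called after 1 week alone and *Col12a1* and *Col9a3* after 2 weeks alone. The deposited FPKM include a scaling between libraries. Without it the median of all genes moved to -0.34 and -0.32. The collagen chains were then called higher 21 and 22 times and lower 1 time at each week (median log2 fold changes 1.09 and 1.77). Of all 15708 genes, 906 and 1032 were then called higher and 1558 and 2087 lower.

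**Figure D3:**
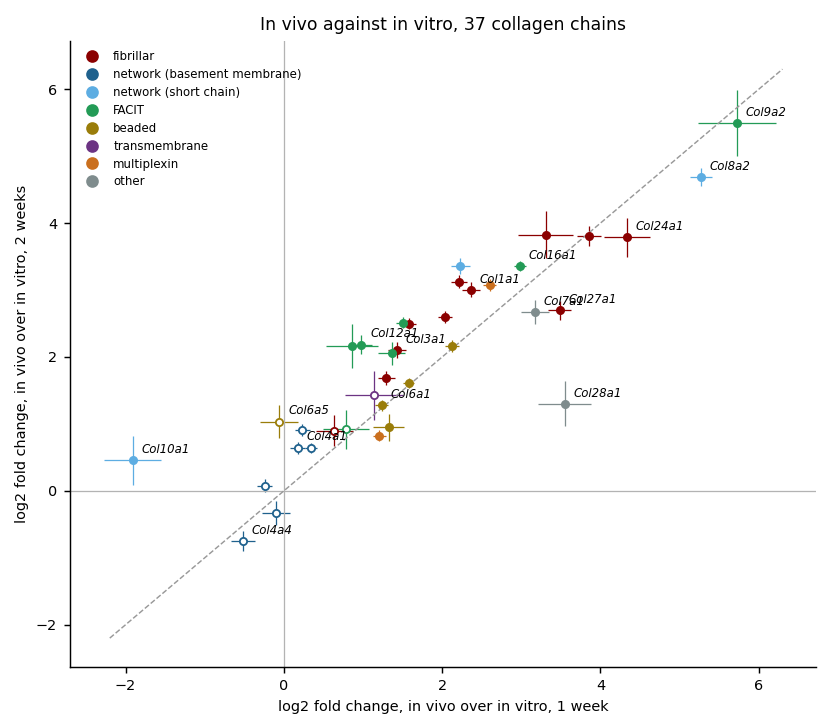
The log2 fold change of each of the 37 tested chains between *in vivo* and *in vitro* samples after 1 week (horizontal) and 2 weeks (vertical), with standard errors from limma as bars, colours for the classes and filled symbols for chains called at either week. The dashed line marks equal changes; *Col9a2* and *Col8a2* lie farthest to the upper right at log2 fold changes above 4, the 6 basement membrane chains lie near 0, and *Col10a1* lies below 0 after 1 week.

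The fibrillar chains were higher *in vivo* almost throughout, in 10 of 11 at each week, with a median log2 fold change of 2.21 after 1 week and 2.70 after 2 weeks. Among these chains, *Col2a1* and *Col24a1* passed the filter through libraries of transplanted cells alone. *Col1a1* (ENSMUSG00000001506, chromosome 11 from 94936224 to 94953042) encodes the major chain of type I collagen, the bulk of scar tissue. Its FPKM was 4132 and 4709 *in vivo* and 852 and 862 *in vitro* after 1 week, and 3261 and 2762 against 386 and 363 after 2 weeks. Its log2 fold change was 2.36 after 1 week (standard error 0.11, limma adjusted p = 1.2e-05) and 3.004 after 2 weeks (standard error 0.11, limma adjusted p = 3.6e-06). The partner chain *Col1a2* (chromosome 6 from 4504814 to 4541544) had 1904 and 1997 against 485 and 463 after 1 week and 1680 and 1486 against 269 and 253 after 2 weeks, with log2 fold changes of 2.04 and 2.60 (limma adjusted p = 7.9e-06 and 2.3e-06). *Col3a1* (chromosome 1 from 45311538 to 45349706), the chain of type III collagen found in early scar and compliant tissue, had 3132 and 3397 against 1233 and 1191 after 1 week and 3333 and 2741 against 703 and 705 after 2 weeks. The log2 fold change of 1.43 after 1 week (standard error 0.12, limma adjusted p = 0.00011) was followed by 2.10 after 2 weeks. In all 3 chains the *in vivo* and *in vitro* libraries did not overlap at either week.

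The type V and XI chains, which co-assemble with type I and type II fibres and limit their thickness, were also higher. *Col5a1* (chromosome 2 from 27886425 to 28039514) had an FPKM of 499 and 564 *in vivo* and 116 and 113 *in vitro* after 1 week and of 474 and 391 against 49.6 and 48.8 after 2 weeks. *Col5a2* (chromosome 1 from 45374321 to 45503282) had 523 and 527 against 184 and 167, then 485 and 422 against 78.6 and 81.3. *Col5a3* (chromosome 9 from 20770050 to 20815067) was lower in level, at 32.8 and 36.5 against 14.2 and 14.0, then 40.1 and 33.0 against 11.7 and 10.7. Their log2 fold changes were 2.21, 1.58 and 1.29 after 1 week (limma adjusted p = 1.0e-05, 1.9e-05 and 0.00013) and 3.13, 2.50 and 1.69 after 2 weeks. Without scaling between libraries the call of *Col5a3* after 1 week was lost (0.95). *Col11a1* (chromosome 3 from 114030540 to 114220718), better known from cartilage, had 29.3 and 33.2 *in vivo* and 2.08 and 2.04 *in vitro* after 1 week and 20.2 and 14.9 against 1.23 and 1.06 after 2 weeks, a log2 fold change of 3.86 and 3.81 (standard error 0.16 each, limma adjusted p = 5.9e-06 and 4.7e-06). *Col11a2* was the fibrillar chain that did not pass, at 1.40 and 1.84 against 1.09 and 0.912, then 1.67 and 2.43 against 0.995 and 1.08 (log2 fold changes 0.64 and 0.90, limma adjusted p = 0.065 and 0.016).

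The scarcer fibrillar chains were higher *in vivo* as well. *Col24a1* (chromosome 3 from 145292472 to 145552011), a developmental fibrillar chain, had an FPKM of 4.30 and 4.80 *in vivo* and 0.196 and 0.0791 *in vitro* after 1 week and of 2.59 and 2.22 against 0.0759 and 0.0868 after 2 weeks. *Col27a1* (chromosome 4 from 63214004 to 63334991), which takes part in the growth of cartilage and bone, had 12.1 and 13.0 against 0.943 and 1.12, then 12.3 and 11.5 against 1.98 and 1.55. *Col2a1* (chromosome 15 from 97975602 to 98004695), the main collagen of cartilage, had 0.915 and 1.77 against 0.0351 and 0.0435, then 4.24 and 3.39 against 0.172 and 0.175. All 3 were called at both weeks, and their log2 fold changes were 4.34, 3.48 and 3.31 after 1 week (limma adjusted p = 5.2e-05, 5.9e-06 and 0.00038) and 3.79, 2.70 and 3.83 after 2 weeks (limma adjusted p = 7.2e-05, 1.3e-05 and 0.00015). The folds of *Col24a1* and *Col2a1* rest on few fragments in culture, 23 and 9 and 5 and 6 in the 1-week libraries, and depend on the pseudocount. With a pseudocount of 1 in place of 0.1 they were 2.29 and 1.15 on the log2 scale after 1 week, and with 0.01 they were 5.07 and 4.71. As a ratio of fragments, *Col2a1* was 34.8 times higher after 1 week, with a 95% exact counting interval of 19.2 to 70.4. *Col27a1* had 189 and 218 fragments in the same libraries.

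The basement membrane chains differed less: 0 of 6 were called by limma in either direction at either week, with median log2 fold changes of 0.04 and 0.36, although *Col4a1*, *Col4a2*, *Col4a4* and *Col4a5* had an adjusted p under 0.01 after 2 weeks. Type IV collagen is the sheet-forming collagen of basement membranes, and *Col4a1* and *Col4a2* make its common form. *Col4a1* (chromosome 8 from 11198423 to 11312826) had an FPKM of 524 and 581 *in vivo* and 492 and 486 *in vitro* after 1 week, a log2 fold change of 0.17 (standard error 0.09, limma adjusted p = 0.17). *Col4a2* (chromosome 8 from 11312805 to 11449287) had 404 and 455 against 362 and 368, a log2 fold change of 0.23 (standard error 0.10, limma adjusted p = 0.091). At 2 weeks the *in vitro* levels were lower, at 261 and 265 for *Col4a1* and 190.1 and 197 for *Col4a2* next to 442 and 382 (*Col4a1*) and 393 and 336 (*Col4a2*) *in vivo*. The log2 fold changes were then 0.65 and 0.91 (limma adjusted p = 0.0011 and 0.00029), under the fold threshold, and the *in vivo* and *in vitro* libraries did not overlap. The direction after 1 week depended on the scaling: it was negative for both genes under quantile normalization, with equal FPKM sums and without scaling.

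The other type IV chains were not called either. *Col4a5* (chromosome X from 141475385 to 141689234), a chain of the X chromosome, had 70.7 and 75.5 *in vivo* and 58.3 and 56.9 *in vitro* after 1 week and 77.3 and 68.9 against 46.5 and 46.9 after 2 weeks (log2 fold changes 0.34 and 0.64, limma adjusted p = 0.0078 and 0.00037, under the fold threshold). *Col4a6* (chromosome X from 141165403 to 141474076) had 5.73 and 6.18 against 6.95 and 7.17, then 6.79 and 7.82 against 7.16 and 6.68, and its groups overlapped after 2 weeks. *Col4a3* (chromosome 1 from 82586921 to 82722059) and *Col4a4* (chromosome 1 from 82448423 to 82586849), which join *Col4a5* in the basement membrane of the kidney glomerulus, were at low levels. *Col4a3* had 0.771 and 0.970 against 0.906 and 0.967, then 2.19 and 2.66 against 3.21 and 2.91, and *Col4a4* had 0.877 and 1.17 against 1.52 and 1.48, then 3.21 and 3.34 against 5.76 and 5.36. The log2 fold change of *Col4a4* was -0.52 after 1 week and -0.75 after 2 weeks (limma adjusted p = 0.03 and 0.006), with both *in vitro* libraries above both *in vivo* libraries each time.

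Type IV genes lie in pairs that are read away from each other. *Col4a1* and *Col4a2* overlap by 22 bases at their starts, *Col4a6* and *Col4a5* are 1308 bases apart, and *Col4a4* and *Col4a3* are 71 bases apart. The interval between the last pair is shown because both genes changed together with time (below), given on the strand of *Col4a4*.
Col4a4 to Col4a3 interval, chr1:82586850-82586920, minus strand, GRCm38: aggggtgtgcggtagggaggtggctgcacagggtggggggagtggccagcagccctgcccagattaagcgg
The interval held none of the 5 motifs searched in the promoters (given with them further on) on either strand.

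The short network chains spread widely, with log2 fold changes of -1.91 to 5.27 after 1 week and 0.46 to 4.68 after 2 weeks. *Col8a2* (chromosome 4 from 126286793 to 126314330), a chain of the type VIII collagen of blood vessels and cornea, had an FPKM of 50.1 and 64.3 *in vivo* and 1.49 and 1.27 *in vitro* after 1 week. At 2 weeks it had 101 and 94.0 against 3.88 and 3.51. Its log2 fold change of 5.27 after 1 week (standard error 0.14, limma adjusted p = 1.0e-06) and 4.68 after 2 weeks (standard error 0.14, limma adjusted p = 1.2e-06) was among the largest of all chains, next to *Col9a2*. The partner chain *Col8a1* (chromosome 16 from 57624258 to 57754737) had 297 and 327 against 66.1 and 66.7 after 1 week and 286 and 253 against 23.3 and 29.3 after 2 weeks, with log2 fold changes of 2.23 and 3.36 (limma adjusted p = 1.8e-05 and 2.5e-06). *Col10a1* (chromosome 10 from 34389981 to 34397085), the collagen of hypertrophic cartilage, was the chain called lower *in vivo*. It had 1.36 and 0.662 *in vivo* and 3.74 and 4.02 *in vitro* after 1 week, and 0.877 and 0.492 against 0.416 and 0.493 after 2 weeks, where the groups overlapped. Its log2 fold change was -1.91 after 1 week (standard error 0.36, limma adjusted p = 0.0056) and 0.46 after 2 weeks (limma adjusted p = 0.33). The call after 1 week was lost without *in vivo* library 2 of that week (log2 fold change -1.44, limma adjusted p = 0.029) and without either *in vitro* library (limma adjusted p = 0.034 and 0.040), and without either 2-week *in vitro* library (limma adjusted p = 0.012 each). *Col10a1* overlaps *Nt5dc1* on the other strand, whose reads cannot be told apart without a stated strand.

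The 250 bases before the starts of these chains are shown for *Col8a2* and for *Col10a1*, the chains of this class farthest apart, beside *Col3a1* from the fibrillar class, with the letters TATAAA in capitals, and likewise the letters GGGCGG on either strand. They are RefSeq promoters of GRCm38.p6, on the plus strand.
Col8a2 promoter, chr4:126286544-126286793: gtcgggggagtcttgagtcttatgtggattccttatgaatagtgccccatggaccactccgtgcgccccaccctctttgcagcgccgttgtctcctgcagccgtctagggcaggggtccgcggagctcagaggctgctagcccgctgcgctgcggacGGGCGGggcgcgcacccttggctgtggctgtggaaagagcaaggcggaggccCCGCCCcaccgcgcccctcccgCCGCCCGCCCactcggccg
Col10a1 promoter, chr10:34389731-34389980: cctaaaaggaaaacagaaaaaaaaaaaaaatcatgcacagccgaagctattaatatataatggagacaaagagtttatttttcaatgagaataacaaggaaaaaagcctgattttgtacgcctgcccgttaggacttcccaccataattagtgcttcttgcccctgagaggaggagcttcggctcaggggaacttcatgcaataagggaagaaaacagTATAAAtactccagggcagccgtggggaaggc
Col3a1 promoter, chr1:45311288-45311537: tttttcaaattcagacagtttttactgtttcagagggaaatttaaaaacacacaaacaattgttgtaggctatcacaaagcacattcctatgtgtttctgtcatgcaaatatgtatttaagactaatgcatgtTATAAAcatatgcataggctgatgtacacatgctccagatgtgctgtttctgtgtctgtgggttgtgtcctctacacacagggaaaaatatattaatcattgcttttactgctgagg
Promoter sequences were found for 35 of the 44 chains, as 38 windows. Searched on both strands in the 250 bases before the start, GGGCGG was in 57.9% of the collagen windows and 32.7% of all 32851 windows, TATAAA in 13.2% and 12.4%, CCAAT in 34.2% and 33.8%, CAGAC, a SMAD motif, in 44.7% and 42.2%, and TGANTCA, the AP-1 motif, in 2.63% and 6.75%. These are matches of letters and say nothing of binding.

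Of the FACIT chains, 4 of 7 tested were higher *in vivo* after 1 week and 6 of 7 after 2 weeks, with median log2 fold changes of 1.36 and 2.18. These counts include *Col9a2* and *Col9a3*, which passed the filter through libraries of transplanted cells alone. *Col9a2* (chromosome 4 from 121039385 to 121055322), a chain of the type IX collagen of cartilage, had the largest fitted fold change at both weeks with a pseudocount of 0.1. With a pseudocount of 1 its log2 fold changes were 3.23 and 3.25, below those of *Col8a2* (4.603 and 4.39). Its FPKM was 8.09 and 10.2 *in vivo* and 0.0840 and 0.0649 *in vitro* after 1 week and 10.5 and 9.54 against 0.304 and 0.0238 after 2 weeks. The log2 fold changes were 5.72 and 5.50 (standard error 0.49 each, limma adjusted p = 0.00016 and 0.00014). The *in vitro* libraries held 4 and 3 fragments of it after 1 week and 13 and 1 after 2 weeks. The ratio of the fragments scaled by library size was 123 (95% exact counting interval 59.6 to 308) and 60.7 (35.9 to 112). *Col9a3* (chromosome 2 from 180597790 to 180622189), its partner, had 0.554 and 0.518 against 0.320 and 0.191 after 1 week, which did not pass, and 1.26 and 1.10 against 0.225 and 0.153 after 2 weeks (log2 fold change 2.16, limma adjusted p = 0.0017). That call was lost without *in vivo* library 1 or *in vitro* library 2 of that week (limma adjusted p = 0.012 each), and with a pseudocount of 1 (log2 fold change 0.88). *Col9a1*, the remaining chain of type IX, was under the filter, with 27 and 20 fragments *in vivo* and 1 and 0 *in vitro* after 1 week and 41 and 27 and 0 and 2 after 2 weeks, ratios of 57.6 (9.85 to 2324) and 41.8 (11.1 to 352). All 3 chains of type IX had their higher values *in vivo*, which is a description only. Ratios were computed only where the *in vivo* fragments were more, and the intervals cover counting error alone.

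Outside type IX, the more abundant FACIT chains were higher too and are given first. *Col16a1* (chromosome 4 from 130047840 to 130099283) had an FPKM of 131 and 141 *in vivo* and 17.7 and 16.6 *in vitro* after 1 week and of 161 and 149.8 against 14.3 and 15.7 after 2 weeks, with log2 fold changes of 2.98 and 3.36 (standard error 0.08 each, limma adjusted p = 1.0e-06 and 5.6e-07). *Col14a1* (chromosome 15 from 55307750 to 55520803), which regulates fibre growth, had 198 and 217 against 75.1 and 70.9, then 204 and 179 against 33.4 and 33.5, with log2 fold changes of 1.50 and 2.51 (limma adjusted p = 2.2e-05 and 2.1e-06). *Col12a1* (chromosome 9 from 79598991 to 79718831), found along dense connective tissue, had 33.9 and 42.4 against 18.7 and 19.8, just under the fold threshold (0.97, limma adjusted p = 0.0018), and afterwards 37.2 and 30.4 against 6.77 and 7.91 (log2 fold change 2.18, limma adjusted p = 3.5e-05). *Col22a1* (chromosome 15 from 71795795 to 72034227), the collagen of muscle-tendon junctions, had 1.05 and 1.24 against 0.360 and 0.407, then 3.96 and 4.07 against 0.880 and 0.903, and was called at both weeks. The call after 1 week was lost with a pseudocount of 1 (log2 fold change 0.63 in place of 1.36) and with only the compared groups in the fit (limma adjusted p = 0.014). *Col20a1* was not called at either week, at 0.831 and 0.657 against 0.442 and 0.339, then 1.19 and 1.34 against 0.787 and 0.486 (limma adjusted p = 0.069 and 0.036), and *Col19a1* was near the floor in every library, with 0 to 4 fragments.

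Among the beaded-filament chains, 4 of 5 tested were higher *in vivo* after 1 week and 3 of 5 after 2 weeks, with medians of 1.32 and 1.28. *Col6a1*, *Col6a2* and *Col6a3* form the common type VI collagen, a filament that joins the matrix to the cell surface. *Col6a1* (chromosome 10 from 76708792 to 76726168) had an FPKM of 582 and 638 *in vivo* and 259 and 258 *in vitro* after 1 week and of 742 and 689.5 against 309.9 and 281 after 2 weeks. *Col6a2* (chromosome 10 from 76595762 to 76623630) had 268 and 295 against 93.1 and 95.2, then 359 and 345 against 119 and 111, and *Col6a3* (chromosome 1 from 90765923 to 90843971) had 129 and 142 against 29.1 and 32.9, then 127 and 118 against 28.7 and 26.0. The 3 chains held nearly the same fold at both weeks: 1.24 and 1.28, 1.58 and 1.61, and 2.12 and 2.16 on the log2 scale (limma adjusted p = 5.0e-05, 9.2e-06 and 7.5e-06 after 1 week). The call of *Col6a1* depended on the scaling, with log2 fold changes of 0.65 to 0.99 after 1 week under quantile normalization, with equal FPKM sums and without scaling. After 2 weeks it was lost under quantile normalization (0.74) and without scaling (0.94).

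*Col6a5* and *Col6a6*, minor chains that lie side by side on chromosome 9, were less abundant. *Col6a5* (chromosome 9 from 105856078 to 105960643) had 0.780 and 0.856 *in vivo* and 0.773 and 0.946 *in vitro* after 1 week, overlapping groups, and 4.64 and 5.44 against 3.06 and 1.88 after 2 weeks (log2 fold change 1.03, limma adjusted p = 0.011, short of the threshold). *Col6a6* (chromosome 9 from 105687809 to 105828160) had 0.988 and 1.19 against 0.390 and 0.358 after 1 week (log2 fold change 1.32, limma adjusted p = 0.0021) and 1.97 and 2.13 against 1.12 and 0.915 after 2 weeks (0.95, limma adjusted p = 0.0072, under the fold threshold). The call of *Col6a6* after 1 week was lost without *in vivo* library 2 of that week or either *in vitro* library (limma adjusted p = 0.012 to 0.017). *Col6a4* was under the filter with 0 to 7 fragments a library.

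Transmembrane collagens were scarce in every group. None of the 4 reached an FPKM of 1 in any library, and *Col23a1* was the 1 that passed the filter. It had 0.447 and 0.442 *in vivo* and 0.215 and 0.0934 *in vitro* after 1 week and 0.834 and 0.805 against 0.227 and 0.256 after 2 weeks. Its log2 fold changes of 1.14 and 1.43 missed the threshold (standard error 0.37 each, limma adjusted p = 0.043 and 0.016). *Col13a1* had an FPKM of 0.130 to 0.649, *Col17a1* of 0.0133 to 0.123 and *Col25a1* of 0 to 0.0958 over the 8 libraries, with at most 33, 8 and 14 fragments. *Col25a1* had 16 fragments *in vivo* and 1 *in vitro* after 2 weeks, a ratio of 19.7 (95% exact counting interval 3.05 to 824), and 14 of the 16 were in 1 library. *Col17a1* had 13 and 6, a ratio of 2.66 whose interval of 0.944 to 8.54 includes 1. After 1 week *Col17a1* had 4 and 1 fragments *in vivo* and 7 and 3 *in vitro*. No ratio was computed there, since ratios were taken only where the *in vivo* fragments were more.

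The multiplexins, basement membrane collagens of which *Col18a1* is the source of endostatin, were both higher after 1 week. *Col15a1* (chromosome 4 from 47208161 to 47313167) had 198 and 223 *in vivo* and 34.3 and 34.9 *in vitro* after 1 week and 205 and 189 against 24.6 and 22.0 after 2 weeks, with log2 fold changes of 2.60 and 3.08 (standard error 0.09 each, limma adjusted p = 2.5e-06 and 1.1e-06). *Col18a1* (chromosome 10 from 77052178 to 77166548) had 31.5 and 31.0 against 14.0 and 13.0, then 32.9 and 29.2 against 18.3 and 16.7, with log2 fold changes of 1.21 and 0.82 (limma adjusted p = 5.5e-05 and 0.00024), the latter under the fold threshold. The call after 1 week was lost with equal FPKM sums (0.96) and without scaling (0.86). Of the others, *Col7a1* (chromosome 9 from 108953586 to 108984875), the anchoring fibre of the skin, had 5.04 and 5.11 against 0.480 and 0.469, then 2.94 and 2.73 against 0.302 and 0.429, log2 fold changes of 3.17 and 2.67 (limma adjusted p = 2.6e-05 and 4.2e-05). *Col28a1* (chromosome 6 from 7997808 to 8192617) had 1.58 and 1.50 against 0.0397 and 0.0410 after 1 week, or 91 and 96 fragments against 3 and 3, a ratio of 38.2 (95% exact counting interval 17.2 to 105). At 2 weeks it had 0.831 and 0.646 against 0.310 and 0.180, and its log2 fold change of 1.30 did not pass (limma adjusted p = 0.017). *Col26a1* was under the filter, at 0.0397 to 0.303, with 59 fragments *in vivo* and 13 *in vitro* after 1 week (ratio 5.57, 95% exact counting interval 3.02 to 11.1). After 2 weeks both of its *in vivo* libraries were below both *in vitro* libraries, with 10 and 9 fragments against 34 and 19. The rule for ratios allowed none there, since it took only cases with more fragments *in vivo*.

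Markers of cell types moved between the same groups. The summed FPKM of the 8 fibroblast markers was 3566 to 3643 *in vivo* and 701 to 777 *in vitro* after 1 week, and 4124 to 4198 and 942 to 965 after 2 weeks. *Dcn*, *Lum*, *Fbln1* and *Postn*, which are matrix genes, were called higher at both weeks. The surface receptors *Pdgfra* and *Pdgfrb*, *Thy1* and the transcription factor *Tcf21* were not called, with log2 fold changes of -0.75 to 0.35. The 11 macrophage markers summed to 2679.5 to 3084 *in vivo* and 5203 to 5932.5 *in vitro* after 1 week and to 1942 to 2333 and 4852 to 5949 after 2 weeks, with 1 called higher and 1 lower *in vivo* after 1 week and 0 higher and 6 lower after 2 weeks. The 7 mesothelial and epicardial markers were all lower *in vivo* at both weeks, with sums of 13.7 to 15.4 against 244 to 251 and 31.5 to 31.8 against 489 to 497. The 8 cardiomyocyte markers summed to 9.86 to 12.3 *in vivo* and 105 to 115 *in vitro* after 1 week and to 16.9 to 23.1 and 552 to 624 after 2 weeks. Of them 1 was called higher and 5 lower after 1 week, and 2 higher and 6 lower after 2 weeks, the higher ones being *Pln* at both weeks (log2 fold changes 2.51 and 3.97) and *Myl2* after 2 weeks (2.39). *Pln* and *Myl2* were below 0.5 FPKM in every library of cultured cells and passed the filter through libraries of transplanted cells alone. None of the markers in these 4 lists was at 0 in both libraries of a group, and their part in the collagen results was not tested.

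Of the cartilage-type chains, *Col2a1*, *Col9a2* and *Col11a1* were called higher *in vivo* at both weeks and *Col9a3* after 2 weeks alone. All of these but *Col11a1* passed the filter through libraries of transplanted cells alone. *Col10a1* was called lower after 1 week (log2 fold change -1.91) and was not called after 2 weeks (0.46). *Col11a2*, the other type XI chain, was not called at either week (0.64 and 0.90). Beside these chains stood 8 markers of cartilage and tendon. The markers summed to an FPKM of 60.3 to 66.0 *in vivo* and 6.55 to 6.93 *in vitro* after 1 week and of 94.5 to 103 and 9.67 to 11.4 after 2 weeks. Higher *in vivo* were 5 of 8 after 1 week and 6 of 8 after 2 weeks, when 7.79% and 9.02% of all tested genes were. Among them were *Acan*, the aggrecan of cartilage (log2 fold changes 6.02 and 5.25), *Scx*, a tendon transcription factor (5.04 and 4.50), and *Sox9*, the regulator of cartilage genes (2.34 and 2.22). *Acan*, *Chad*, *Tnmd*, *Matn3* and *Mkx* were below 0.5 FPKM in every library of cultured cells. They passed the filter through libraries of transplanted cells alone, which favoured calls in this direction in advance. The fold of *Acan* after 1 week rests on an FPKM of 0.130 and 0.0807 in culture, near the pseudocount of 0.1. The 8 endothelial markers, of interest for the type IV, VIII and XV chains, summed to 79.9 to 91.3 *in vivo* and 21.7 to 22.7 *in vitro* after 1 week and to 79.7 to 86.2 and 50.7 to 58.6 after 2 weeks, with 7 and 3 called higher. Of these markers, *Vwf* passed the filter through libraries of transplanted cells alone. The 7 markers of pericytes and smooth muscle moved in both directions, with 4 called higher and 2 lower after 1 week and 2 higher and 4 lower after 2 weeks. Their sums were 135 to 148 and 123 to 140, then 123 to 139 and 190 to 202. None of these lists was tested for its part in the collagen values.

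Genes that build, process, crosslink and sense collagen were listed by role, and 40 of 42 were tested. At 1 week 15 were higher and 1 was lower *in vivo*, and after 2 weeks 18 were higher and 1 was lower, with median log2 fold changes of 0.72 and 0.86. Of all tested genes 7.79% were higher and 5.07% lower after 1 week, and 9.02% and 8.05% after 2 weeks. In biosynthesis and folding 7 of 20 were higher after 1 week and 9 of 20 after 2 weeks, among them *P4ha3*, a prolyl hydroxylase (log2 fold changes 3.19 and 3.52, limma adjusted p = 1.7e-06 and 9.6e-07), and *Colgalt2*, a collagen galactosyltransferase (2.94 after 1 week, limma adjusted p = 0.00014). Of the 6 tested genes for propeptide cleavage 3 were higher at each week. Of the 5 lysyl oxidases, which crosslink the fibres, 3 were higher after 1 week and 4 after 2 weeks, with *Loxl3* at 3.30 and 3.51 (limma adjusted p = 5.5e-07 and 4.2e-07) and *Lox* at 3.76 after 2 weeks (limma adjusted p = 8.9e-07). Of 9 collagen receptors and related genes 2 were higher and 1 was lower at each week, the lower being *Ddr1*, a receptor kinase for collagen (log2 fold changes -1.30 and -1.58, limma adjusted p = 1.0e-05 and 3.6e-06).

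Between 1 week and 2 weeks 13 chains passed the test in culture and 4 *in vivo*. In culture 6 of 37 chains rose and 7 fell, when 2.76% of all tested genes rose and 1.05% fell. *In vivo* 4 chains rose and 0 fell by limma, against 1.23% and 0.949% of all genes. At an unadjusted p under 0.05 there were 13 rising and 10 falling *in vivo*. That count was not made over all genes, so it cannot be set against a background. By limma with no fold minimum, 4 chains rose and 0 fell *in vivo*, when 447 and 290 of all 15708 genes did. By limma voom 5 rose and 0 fell, when 302 and 202 of all 15708 genes did. The 7 chains that fell in culture were *Col1a1*, *Col5a1* and *Col5a2* of the fibrillar class, the FACIT chains *Col12a1* and *Col14a1*, and *Col8a1* and *Col10a1* of the short network chains. The largest fall was that of *Col10a1*, from 3.74 and 4.02 to 0.416 and 0.493 (log2 fold change -2.85, standard error 0.36, limma adjusted p = 0.0029). *Col1a1* fell from 852 and 862 to 386 and 363 (log2 fold change -1.20, limma adjusted p = 0.001), and *Col5a1*, *Col5a2*, *Col8a1*, *Col12a1* and *Col14a1* with log2 fold changes between -1.38 and -1.12. *Col1a2* and *Col3a1* were also lower after 2 weeks in culture, under the fold threshold (log2 fold changes -0.86 and -0.78, limma adjusted p = 0.0013 and 0.0048).

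**Figure D4:**
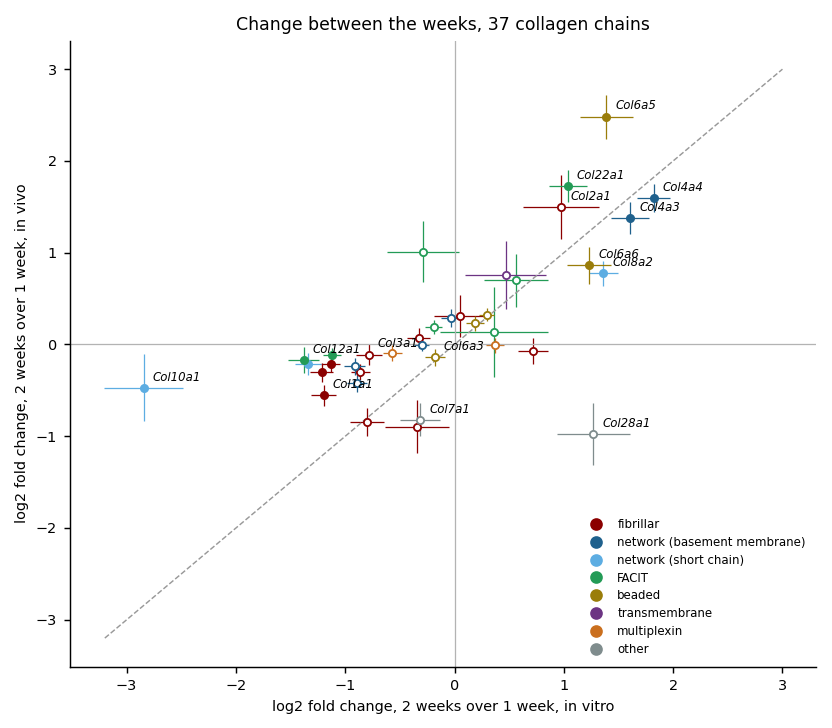
The log2 fold change between 2 weeks and 1 week of each of the 37 tested chains *in vitro* (horizontal) and *in vivo* (vertical), with standard errors from limma as bars, class colours and filled symbols for chains called in either setting. *Col4a3*, *Col4a4*, *Col6a5* and *Col22a1* lie in the upper right, called in both settings, and the 7 chains called lower in culture lie on the left with *in vivo* values between -0.56 and -0.12.

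The chains that rose with time *in vivo* were *Col4a3*, *Col4a4*, *Col6a5* and *Col22a1*, and all 4 rose in culture as well. *Col4a4* went from 0.877 and 1.17 to 3.21 and 3.34 *in vivo* and from 1.52 and 1.48 to 5.76 and 5.36 *in vitro*, with log2 fold changes of 1.60 and 1.82 (limma adjusted p = 0.0017 and 0.00065). Its neighbour *Col4a3*, whose start is 72 bases away, changed by 1.38 and 1.61 (limma adjusted p = 0.0045 and 0.0016). The pair kept its order, with a ratio of *Col4a3* to *Col4a4* between 0.550 and 0.854 in the means of the 4 groups. *Col6a5* changed by 2.48 *in vivo* and 1.39 *in vitro* (limma adjusted p = 0.0018 and 0.0083), and *Col22a1* by 1.73 and 1.04 (limma adjusted p = 0.002 and 0.0072). *Col8a2* and *Col6a6* were called in culture alone, with log2 fold changes of 1.36 and 1.23 there and 0.78 and 0.86 *in vivo*. With the 4 libraries of 1 setting alone in the fit, 0 of all 15708 genes were called in either setting by limma, the chains included. At an unadjusted p under 0.05, that fit had 11 chains higher and 15 lower with time in culture, and 11 higher and 5 lower *in vivo*. This was not counted over all genes, so it cannot be set against a background. With 1 library left out, fewer chains rose in each setting, and fewer fell in culture where that library was a culture one. Such a fit leaves 1 library in its group.

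The *in vivo* minus *in vitro* difference was itself compared between the weeks. Of the 37 chains 1 had a more positive difference after 2 weeks than after 1 week and 0 a more negative one by limma, when 0.573% of all genes were called more positive and 1.15% more negative. At an unadjusted p under 0.05 there were 18 and 4. That count was not made over all genes, so it cannot be set against a background. By limma with no fold minimum, 2 and 0 chains were called, when 145 and 243 of all 15708 genes were. By limma voom 3 and 1 chains were called, when 160 and 312 of all 15708 genes were. The chain was *Col14a1*, whose difference grew by 1.01 on the log2 scale (standard error 0.12, limma adjusted p = 0.006). The *in vitro* level fell from 75.1 and 70.9 to 33.4 and 33.5 and the *in vivo* level went from 198 and 217 to 204 and 179. The call was lost whichever of the 8 libraries was left out (log2 differences 0.91 to 1.10, limma adjusted p = 0.010 to 0.035). *Col5a1*, *Col5a2*, *Col8a1* and *Col12a1* had values of 0.92, 0.92, 1.13 and 1.21 in the same direction without passing both thresholds (limma adjusted p = 0.013, 0.0074, 0.011 and 0.016). *Col10a1* had the highest value, 2.37, with a wide error (standard error 0.52, limma adjusted p = 0.036), and *Col28a1* the lowest, -2.25 (standard error 0.48, limma adjusted p = 0.033). The median over the chains was 0.32, next to -0.01 for all genes.

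Collagen molecules are assembled from set chains, so the ratios of partner chains were read in each library, as a description with no test. The FPKM ratio of *Col1a1* to *Col1a2*, whose protein contains more of the former, was 2.26 ± 0.133 *in vivo* and 1.81 ± 0.0764 *in vitro* after 1 week and 1.90 ± 0.0581 and 1.44 ± 0.00106 after 2 weeks (SD, n = 2 each). Per length of the longest coding transcript, a choice made after the data were seen, the same ratios were 1.08, 0.862, 0.905 and 0.684. On either length the ratio was higher *in vivo* than *in vitro* at both weeks. The ratio of *Col3a1* to *Col1a1* was lower *in vivo*, at 0.740 ± 0.0259 against 1.41 ± 0.0468 after 1 week and 1.01 ± 0.0212 against 1.88 ± 0.0847 after 2 weeks (SD, n = 2 each). *Col5a1* to *Col5a2* stood at 1.01 ± 0.0822 and 0.653 ± 0.0333, then 0.952 ± 0.0375 and 0.616 ± 0.0219 (SD, n = 2 each).

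The other partner pairs fell into steady and shifting ones. *Col4a1* to *Col4a2* was close in all groups, at 1.29 ± 0.0126, 1.34 ± 0.0274, 1.13 ± 0.00796 and 1.36 ± 0.0181 for *in vivo* and *in vitro* after 1 week and then after 2 weeks (SD, n = 2 each). *Col6a1* to *Col6a2* was 2.17 ± 0.00770 and 2.75 ± 0.0476, then 2.03 ± 0.0464 and 2.56 ± 0.0512 (SD, n = 2 each), lower *in vivo* at both weeks. *Col6a3* to *Col6a1* was higher *in vivo*, at 0.222 ± 0.000780 against 0.120 ± 0.0106 and 0.172 ± 0.000197 against 0.0925 ± 0.000251 (SD, n = 2 each). *Col5a2* to *Col1a1* was 0.119 ± 0.0104 against 0.205 ± 0.0157, then 0.151 ± 0.00298 against 0.214 ± 0.0146 (SD, n = 2 each). The widest shift was that of type VIII, with *Col8a1* at 5.51 ± 0.598 times *Col8a2* *in vivo* and 48.5 ± 5.86 times *in vitro* after 1 week, and at 2.77 ± 0.0974 and 7.19 ± 1.67 times after 2 weeks (SD, n = 2 each). In these pairs, the *in vivo* and *in vitro* libraries of a week did not overlap.

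**Figure D5:**
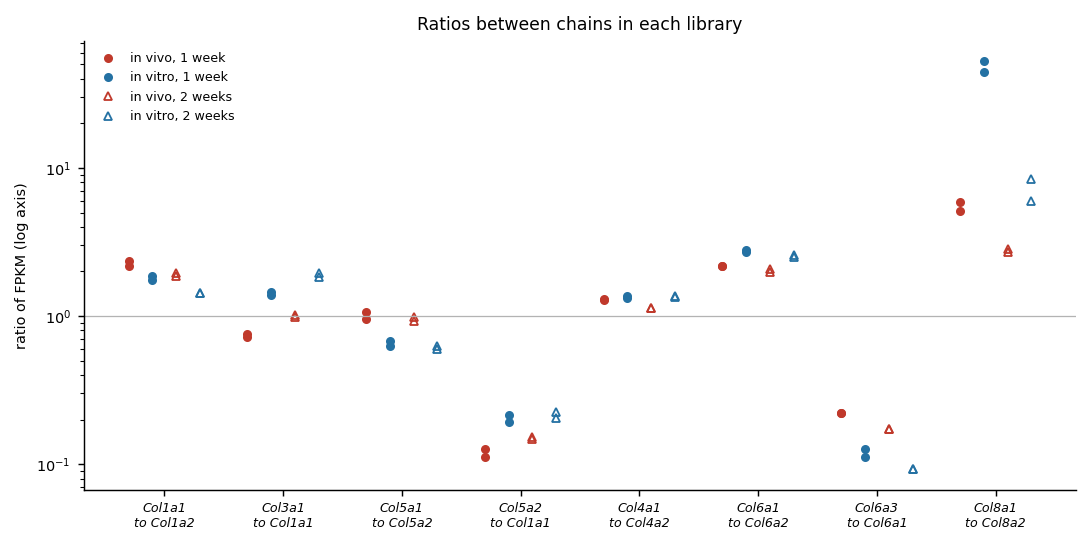
Ratio of the FPKM of 2 chains in each of the 8 libraries for 8 pairs, on a log axis, with the line at 1 for equal FPKM, circles for 1 week, triangles for 2 weeks, red for *in vivo* and blue for *in vitro*. *Col8a1* to *Col8a2* spans 2.77 to 48.5 in the group means, while *Col4a1* to *Col4a2* stays between 1.13 and 1.36.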

How the data were processed

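RNA-seq of eGFP+ MICFs was deposited as 1 table of FPKM per gene for 8 libraries. Per the submitters' processing notes and the methods of the study, the authors demultiplexed with CASAVA and aligned with HISAT2 2.0.5 to mm10, and the deposited FPKM had been scaled between libraries. The counting tool and its strand setting are not given in the sources used here. Values times gene length gave whole fragments within 0.05 for 100% of entries, and the library size behind the FPKM was 0.863 to 0.915 times the gene fragments for *in vivo* libraries and 1.09 to 1.15 times for *in vitro* libraries. Gene lengths were unions of exons.

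The authors used DESeq2, which needs counts; here limma 3.58.1 in R 4.3.3 was fitted with a variance trend to log2(FPKM + 0.1) of the 15708 genes that reached 0.5 FPKM in 2 or more libraries, with 4 groups and no block. Genes were called where the p, adjusted after Benjamini-Hochberg, was below 0.01 and the log2 fold change exceeded 1 in either direction. On simulated data for the 1-week comparison (15298 genes), 190 of 200 changed genes were called, with 8 wrong calls. How many real differences the calls missed was not tested, neither for the collagen chains with few fragments in culture nor for other genes. Depth was 12304242 to 14546904 fragments per library. Intervals on fragment ratios are exact, at 95%, and cover counting error only. Ratios were computed only for chains with above 0 and at most 20 fragments in culture in a week and more *in vivo*. By this rule no ratio could favour culture. Libraries with the same number did not deviate together (correlations -0.048 to -0.011), so numbers were not treated as pairs.

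Chains whose mean reached 5 FPKM in a group, a call in any comparison or a place in a head-to-head pair were described with values, and *Col11a2*, *Col20a1* and *Col23a1* were added after their values were seen. The chains, classes, pathway lists and marker lists (fibroblast, macrophage, endothelial, cardiomyocyte, mesothelial and epicardial, cartilage and tendon, pericyte and smooth muscle) were chosen with earlier results of these data known. 1 further marker list is not reported here. Exon structure came from GENCODE vM21 and promoters from RefSeq. Alternatives covered the pseudocount, filter, scaling, thresholds, model, gene set and each library left out.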

Additional observations from a re-analysis of the deposited data

Results flagged for a closer look

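The difference of *Col14a1* between *in vivo* and *in vitro* samples was itself different between the weeks. On the log2 scale it was 1.50 after 1 week and 2.51 after 2 weeks, a change of 1.01 (standard error 0.12, limma adjusted p = 0.006), and no other chain passed both thresholds of this test. Without 1 library the change was 0.91 to 1.10 and did not pass (limma adjusted p = 0.010 to 0.035).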

How the results depend on the processing

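At 1 week 778 of 813 values of the 37 chains under the alternatives kept their direction and side of the threshold, and 9 changed sign; after 2 weeks 781 of 813 did, and 3 changed sign. The calls over time held less often: 73 of 286 values of the 13 chains called in culture, 26 of 88 of the 4 called *in vivo* and 12 of 21 of *Col14a1* no longer passed. The cause was not tested. Lower after 1 week were 0 with no filter, with only the compared groups and with no variance trend, and lower after 2 weeks 1 without scaling and with no fold minimum. Rising in culture were 2 with a pseudocount of 1, 3 with no filter, with equal FPKM sums and with the replicate block, and 0 with only the compared groups. Falling in culture were 0 with only the compared groups and 12 with no fold minimum, with 10 falling beside 5 rising under quantile normalization and 10 beside 3 with equal sums. Rising *in vivo* were 0 with only the compared groups. A more positive difference after 2 weeks had 0 chains with no filter, the replicate block or no trend, 2 with FPKM of at least 1 or no fold minimum, 3 with quantile normalization, no scaling, voom or protein-coding genes only, 5 with equal sums and 4 at an adjusted p under 0.05; a more negative one had 1 with voom, protein-coding genes only or an adjusted p under 0.05. This difference could not be computed from compared groups alone. All these fits are limma.

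Leaving out 1 library gave 23 to 25 higher and 0 to 1 lower after 1 week, 22 to 24 and 0 after 2 weeks, 1 to 3 rising and 3 to 7 falling in culture, 0 to 3 and 0 *in vivo*, and 0 and 0 for the difference between weeks. For the changes over time, the upper ends of these ranges came from leaving out a library outside the compared groups. Signs changed for *Col4a1* after 1 week (-0.35 with quantile normalization, -0.0734 with equal sums, -0.17 without scaling), *Col4a2* after 1 week (-0.48, -0.0145 and -0.11), *Col4a6* after 2 weeks (-0.0798 with equal sums, -0.25 without scaling, -0.0264 to 0.18 without 1 *in vivo* library of that week), *Col4a3* after 1 week (0.0469 without an *in vivo* library) and *Col6a5* after 1 week (-0.19 to 0.0719 without 1 library). Of protein-coding FPKM, collagens held 4.88% *in vivo* after 1 week, and in culture 1.80% and then 0.937%. The ratio of *Col6a3* to *Col6a1* *in vitro* after 2 weeks was 0.0928 with the pseudocount.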
